A study of Homo sapiens with 8 samples.

Results

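The genes described here are ANGPTL4, the 3 PPAR receptor genes PPARA, PPARD and PPARG, and 6 genes that coat lipid droplets or control their breakdown: PLIN2, PLIN3, PNPLA2, ABHD5, HILPDA and G0S2. They are 10 of the 58735 genes of the table and were found by gene name. ANGPTL4 was chosen by its measured FPKM, as the gene with the largest difference between 2 shRNAs against MAPKAPK2. The other 9 were taken for their known roles beside it, with earlier results of these data known. The 8 RNA-seq libraries, 2 for each of 4 groups, come from HCT116, a cell line established from a human colorectal carcinoma. Cells with a control shRNA (short hairpin RNA) were kept without glucose (0 mM) for 24 h. Cells with MAPKAPK2 shRNA 1 and cells with MAPKAPK2 shRNA 2 were kept in 20 mM glucose, and their hours in it are not stated in the labels. Cells with the control shRNA in 20 mM glucose for 24 h are the group to which the other 3 were compared, so the 3 comparisons share these 2 libraries. MAPKAPK2 encodes MK2, a stress kinase downstream of p38, and all cells carried an shRNA. Nothing in the labels says that replicates came from separate cultures, or whether the cells with an shRNA were pools or clones, so p-values measure the spread between these libraries, which may be technical.

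ANGPTL4 is a secreted protein that inhibits lipoprotein lipase, the enzyme that frees fatty acids from circulating triglyceride. Its gene is a classic target of PPARs, nuclear receptors that bind fatty acids and pair with RXR on DNA, and it is also induced in hypoxia. Inside the cell, fatty acids are stored as triglyceride in lipid droplets, whose surface perilipins such as PLIN2 and PLIN3 cover. PNPLA2 (adipose triglyceride lipase) starts the breakdown of that triglyceride, ABHD5 activates it, and G0S2 and HILPDA inhibit it.

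The libraries held 14252316 to 19975449 reads in genes. Levels are the authors' FPKM, reads scaled to exon length and to a library size that the labels do not define. Reads in genes were 1.045 and 1.053 times that size with shRNA 2, 0.970 and 0.932 times with shRNA 1, and 0.967 and 0.980 times in the 20 mM controls. Part of a small difference between groups may come from this scaling, which was not tested. Tests were run on log2(FPKM + 1) with limma over 16239 genes with at least 1 FPKM in at least 2 libraries. The threshold was an adjusted p under 0.05. Of the 10 genes 9 passed this filter, and 8 of them had at least 1 FPKM in every library; G0S2 did not pass. MAPKAPK2 itself was at 2.77 and 2.54 FPKM with shRNA 1 and at 0.982 and 0.800 FPKM with shRNA 2, against 16.4 and 16.2 FPKM in the 20 mM controls, and at 17.9 and 18.9 FPKM in the 0 mM cells. Of 8 epithelial markers 6 were tested, and KRT8, KRT18 and EPCAM were among them, while VIL1 and LGALS4 stayed under 1 FPKM in all libraries. Among the 10 fat cell markers ADIPOQ was at 0 in all 8 libraries, LEP, FABP4, PLIN1 and CIDEC were at most 0.207 FPKM, and AQP7 at most 0.247 FPKM. Others of that list were expressed: CFD at 31.8 to 50.6 FPKM, ADIPOR2 at 12.2 to 31.6, LIPE at 1.66 to 2.45 and GPD1 at 0.358 to 1.23. All 7 macrophage markers, 6 of 7 fibroblast markers and 5 of 6 hepatocyte markers stayed under 1 FPKM in all libraries.

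Upstream sequence is shown for ANGPTL4, whose level differed most between the shRNAs, and for PPARD, the PPAR gene with the highest level in every library. Each is the 250 bases before a RefSeq transcription start on GRCh38.p14, on the plus strand, at chr19:8363905-8364154 for ANGPTL4 and chr6:35342308-35342557 for PPARD. In GENCODE 29, which the FPKM follow, ANGPTL4 starts earlier, at 8363289, so its window lies inside the gene as annotated there. PPARD starts there at 35342558, right after its window. Capitals mark ACGTG or GCGTG on either strand, the core of the hypoxia response element.
ANGPTL4: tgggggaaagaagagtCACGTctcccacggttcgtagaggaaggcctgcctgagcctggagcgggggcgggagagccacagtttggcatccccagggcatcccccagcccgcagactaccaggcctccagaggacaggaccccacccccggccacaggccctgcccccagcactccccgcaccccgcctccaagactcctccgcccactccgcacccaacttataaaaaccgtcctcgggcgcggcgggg
PPARD: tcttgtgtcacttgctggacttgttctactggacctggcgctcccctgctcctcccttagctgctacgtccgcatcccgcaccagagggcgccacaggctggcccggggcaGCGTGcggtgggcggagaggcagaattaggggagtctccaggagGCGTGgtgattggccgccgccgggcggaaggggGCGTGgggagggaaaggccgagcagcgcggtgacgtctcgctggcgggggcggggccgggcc
The ANGPTL4 window held 1 such core, ending 229 bases before the start, and the PPARD window held 3. Of 35116 upstream windows of the same length 43.2% held at least 1, so the match is common. The share with 3 or more was not counted, so nothing is read from the 3 of PPARD. The PPAR direct repeat 1, searched as an AGGTCA half-site repeated after any 1 base, was in neither window on either strand. Only 0.0171% of all windows held it, so its absence was likely for any gene. Looser matches and bases outside the 250 were not searched, so nothing about PPAR sites is read from this. A TATAAA match was in the ANGPTL4 window and not in that of PPARD, and 10.7% of all windows had one; TATAAA shares no base with the marked cores. The cores were searched on both strands, where a CACGTG counts on each. RefSeq windows were found for 9 of the 10 genes. These matches are letters and not sites of binding, and no binding was measured.

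ANGPTL4 (ENSG00000167772, chromosome 19, 8363289 to 8374373 on the plus strand of GRCh38) stood far apart between the shRNAs. Its level was 40.95 and 24.6 FPKM with shRNA 2 and 1.11 and 1.42 FPKM with shRNA 1, against 4.94 and 3.599 FPKM in the 20 mM controls. Both libraries with shRNA 2 were above both controls and both with shRNA 1 were below them, so the shRNAs lay on opposite sides of the control level. The reads behind these levels were 1925 and 983 with shRNA 2, 52 and 54 with shRNA 1, and 205 and 159 in the controls. Within shRNA 2 the libraries differed by more than counting error, with exact 95% Poisson intervals of 39.1 to 42.8 and 23.1 to 26.2 FPKM; such intervals cover counting error only. The mean was 32.8 ± 11.6 FPKM with shRNA 2 and 1.27 ± 0.219 FPKM with shRNA 1 (SD, n = 2 each), a ratio of 25.9. In bulk RNA, fewer cells with a transcript and less of it per cell cannot be told apart.

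The log2 difference of shRNA 2 minus shRNA 1 was 3.86 on log2(FPKM + 1), rank 1 of 16239 genes by size, and the gene next to it was HMGN2 at −2.93. This difference chose ANGPTL4, so it and the gene's differences from the controls are given with no test. Against the 20 mM controls the log2 fold change was 2.65 (SE 0.24) with shRNA 2 and −1.21 (SE 0.24) with shRNA 1. On reads recovered from the FPKM, fitted with limma voom, the values were 2.92 and −1.75, and the gene ranked 7 by size for the difference between the shRNAs. The value with shRNA 2 ran from 2.29 to 3.00 when 1 library was left out, and that with shRNA 1 from −1.39 to −1.02.

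Without glucose ANGPTL4 was at 5.34 and 5.43 FPKM in control shRNA cells, against 4.94 and 3.599 FPKM at 20 mM. The 0 mM libraries lay above both 20 mM libraries, but the log2 fold change of 0.29 (SE 0.24) did not pass the test (limma adjusted p = 0.791). This SE, like those given with the shRNAs, pools the spread within all 4 groups. The shRNA 2 pair, which is not part of this comparison, spread most. In order of level, shRNA 2 came first, then control shRNA at 0 mM and at 20 mM, which did not differ beyond the test's threshold, and then shRNA 1.

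**Figure D1:**
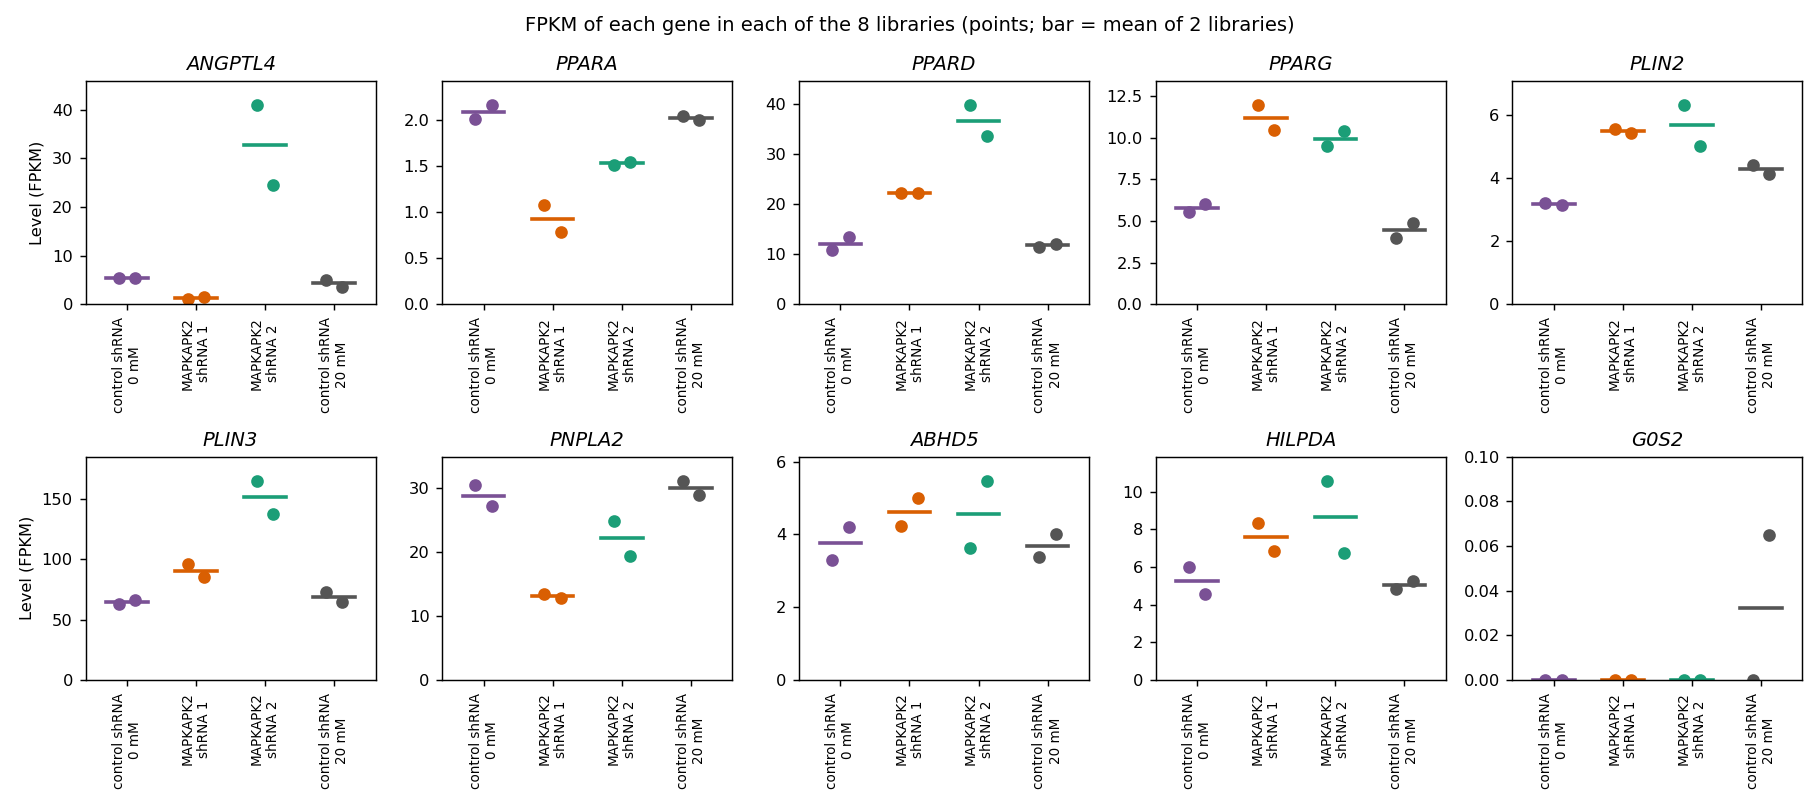
FPKM of the 10 genes in each of the 8 libraries (points, each panel with its own axis from 0), with bars for the mean of the 2 libraries of a group. ANGPTL4 reached 40.95 and 24.6 FPKM with shRNA 2 and stayed at 1.11 and 1.42 FPKM with shRNA 1, while PPARG was above both 20 mM controls with either shRNA.

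The counts that follow are over the 8 genes with a test, which leaves out ANGPTL4 and G0S2. Because earlier results of these data were known when the genes were chosen, the counts and medians are not those of an independent list. With shRNA 1 limma called 4 of the 8, where 19.8% of all tested genes passed. Of these 2 rose (9.35% of all genes) and 2 fell (10.5%). At an unadjusted p under 0.05 there were 5 up and 2 down, where 33.9% of all tested genes passed. On recovered reads it called 3 up (12% of all genes) and 2 down (13.5%), where 25.5% of all genes passed. With shRNA 2 limma called 3 of the 8, where 18.8% of all tested genes passed. All 3 rose (11.1% of all genes) and 0 fell (7.73%), and at an unadjusted p under 0.05 there were 5 up and 1 down, where 32.7% of all tested genes passed. On recovered reads it called 4 up (14.2% of all genes) and 1 down (10%), where 24.2% of all genes passed.

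Against the 20 mM controls the libraries did not overlap for 8 of the 8 genes with shRNA 1 (65.7% of all tested genes), 6 above (31.7%) and 2 below (34%). With shRNA 2 this held for 7 of the 8 (57.4% of all tested genes), 5 above (29.9%) and 2 below (27.5%). The libraries of the 2 shRNAs did not overlap for 6 of the 9 fitted genes, with 5 higher in shRNA 2 and 1 lower; the shares of all genes were 60%, 32% and 27.9%, and nothing is read from this contrast, which chose ANGPTL4. The median log2 fold change of the 8 genes was 0.34 with shRNA 1 and 0.49 with shRNA 2, beside −0.01 and 0.01 over all tested genes.

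The PPAR genes did not all move in 1 direction. PPARD (ENSG00000112033, chromosome 6, 35342558 to 35428191, plus strand), the receptor found in most tissues, rose with both shRNAs. Its level was 22.2 and 22.2 FPKM with shRNA 1 and 39.9 and 33.6 FPKM with shRNA 2, against 11.5 and 12.1 FPKM in the 20 mM controls. All 4 knockdown libraries were above both controls, and the shRNA 2 libraries were above those with shRNA 1. The log2 fold change was 0.86 with shRNA 1 (SE 0.13, limma adjusted p = 0.00575) and 1.55 with shRNA 2 (SE 0.13, limma adjusted p = 6.25e-04). The shRNA 1 call was lost without the first 20 mM control (limma adjusted p = 0.0506), where the log2 fold change was 0.82. Control cells at 0 mM had 10.9 and 13.4 FPKM, on either side of the 20 mM libraries (log2 fold change 0.03, limma adjusted p = 0.979).

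PPARG (ENSG00000132170, chromosome 3, 12287368 to 12434356, plus strand), the receptor best known from fat cells and also present in intestinal epithelium, rose to a similar level with both shRNAs. It was at 11.97 and 10.4 FPKM with shRNA 1 and 9.49 and 10.4 FPKM with shRNA 2, against 3.98 and 4.89 FPKM in the 20 mM controls. Every knockdown library was above both controls. The log2 fold change was 1.17 with shRNA 1 (SE 0.12, limma adjusted p = 0.00195) and 1.01 with shRNA 2 (SE 0.12, limma adjusted p = 0.00267), and both calls held in all 13 alternative fits. At 0 mM the level was 5.51 and 6.02 FPKM, above both 20 mM libraries, but the log2 fold change of 0.32 did not pass (limma adjusted p = 0.536, unadjusted 0.0345).

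PPARA (ENSG00000186951, chromosome 22, 46150521 to 46243756, plus strand), the receptor best known for driving fatty acid oxidation in liver, was the least abundant of the 3 and fell with shRNA 1. It was at 1.08 and 0.782 FPKM with shRNA 1, from 269 and 158 reads, and at 1.51 and 1.55 FPKM with shRNA 2, against 2.05 and 2.00 FPKM in the controls. Both shRNAs put it below both controls, by a log2 fold change of −0.65 with shRNA 1 (SE 0.14, limma adjusted p = 0.0225) and −0.26 with shRNA 2 (adjusted p = 0.270). The shRNA 1 call was lost when either shRNA 1 library or either 20 mM control was left out (limma adjusted p = 0.0594 to 0.118) and without the filter on low values (0.0584). On the recovered reads the fold change with shRNA 1 was −1.12 (limma voom adjusted p = 3.48e-04), on a scale without the added 1 FPKM. At 0 mM PPARA was at 2.01 and 2.17 FPKM, overlapping the 20 mM libraries.

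The summed level of the 3 receptor genes was 35.2 and 33.4 FPKM with shRNA 1 and 50.9 and 45.5 FPKM with shRNA 2, against 17.6 and 19.0 FPKM in the 20 mM controls. PPARD made up 63.0% and 66.4% of that sum with shRNA 1 and 78.4% and 73.8% with shRNA 2, against 65.6% and 63.8% in the controls. The share with shRNA 2 was thus above every other library, while that with shRNA 1 overlapped the controls. PPARG was 11.1 and 13.4 times PPARA with shRNA 1 and 6.27 and 6.70 times with shRNA 2, against 1.94 and 2.44 times in the controls. These ratios are descriptions without a test.

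**Figure D2:**
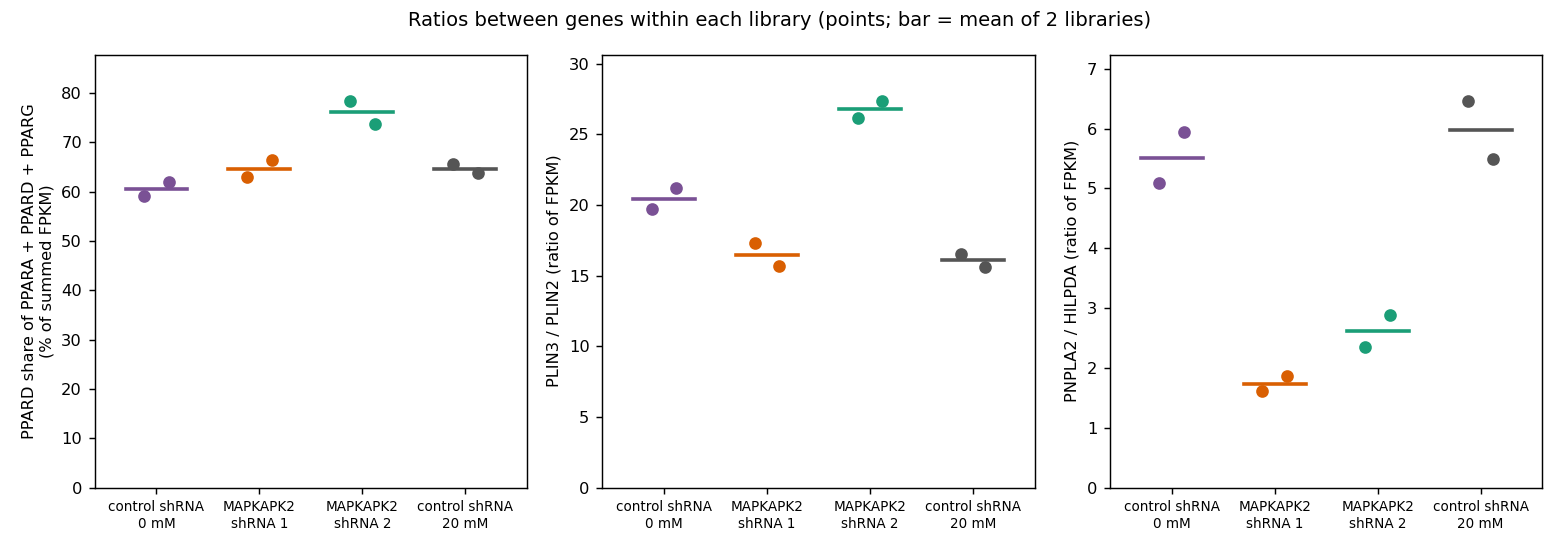
Ratios between genes within each library (points; bars show the mean of 2 libraries): the share of PPARD in the summed FPKM of the 3 PPAR genes, PLIN3 over PLIN2, and PNPLA2 over HILPDA. PNPLA2 over HILPDA was 1.61 to 2.88 in the 4 knockdown libraries and 5.09 to 6.46 in the 4 control shRNA libraries. PNPLA2 over ABHD5, not plotted, overlapped, at 2.55 to 6.85 in the knockdown libraries and 6.44 to 9.24 in the control shRNA libraries. These ratios were not tested, and HILPDA passed the main test with neither shRNA.

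Of the perilipins, PLIN3 (ENSG00000105355, chromosome 19, 4838341 to 4867768, minus strand), which shuttles between cytosol and droplets, was the abundant one. It was at 95.9 and 85.2 FPKM with shRNA 1 and 165 and 137 FPKM with shRNA 2, against 73.2 and 64.6 FPKM in the 20 mM controls. All knockdown libraries were above both controls. PLIN3 rose with shRNA 2 (log2 fold change 1.12, SE 0.13, limma adjusted p = 0.00207) and in all 13 alternatives as well. With shRNA 1 the log2 fold change of 0.39 did not pass (limma adjusted p = 0.0737), although it did on recovered reads (0.0298), with quantile normalization (0.0116), without the first shRNA 2 library (0.0376) and without the second (0.0380). Of its exon bases 17.8% overlap AC027319.1 on the opposite strand, a gene at 0 FPKM in every library.

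PLIN2 (ENSG00000147872, chromosome 9, 19108375 to 19149290, minus strand), a perilipin that stays on droplets and is degraded without them, was far lower. It was at 5.55 and 5.43 FPKM with shRNA 1 and 6.31 and 5.02 FPKM with shRNA 2, against 4.42 and 4.13 FPKM in the controls. All 4 knockdown libraries lay above both controls, but neither log2 fold change passed (0.30 and 0.33, limma adjusted p = 0.120 and 0.0945). With shRNA 2 it passed without that group's second library (0.47, limma adjusted p = 0.0330). At 0 mM PLIN2 was at 3.20 and 3.14 FPKM, below every other library, and the log2 fold change of −0.34 against 20 mM did not pass (limma adjusted p = 0.499, unadjusted 0.0224). PLIN3 was 17.3 and 15.7 times PLIN2 with shRNA 1 and 26.2 and 27.4 times with shRNA 2, against 16.6 and 15.6 times in the controls.

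PNPLA2 (ENSG00000177666, chromosome 11, 818902 to 825573, plus strand), the lipase, fell with shRNA 1. Its level was 13.5 and 12.8 FPKM with shRNA 1 and 24.8 and 19.4 FPKM with shRNA 2, against 31.2 and 28.9 FPKM in the controls. Both groups were below both controls, shRNA 1 by more. The log2 fold change was −1.13 with shRNA 1 (SE 0.13, limma adjusted p = 0.00252), a call that held in all 13 alternatives, and −0.43 with shRNA 2 (SE 0.13, limma adjusted p = 0.0615). With shRNA 2 it passed on recovered reads (0.0243), with quantile normalization (0.0246) and without that group's first library (−0.60, limma adjusted p = 0.0183). Some 10.4% of its exon bases overlap AP006621.1 on the opposite strand, which reached at most 0.469 FPKM.

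The activator ABHD5 (ENSG00000011198, chromosome 3, 43690108 to 43734371, plus strand) was at 4.24 and 5.01 FPKM with shRNA 1 and 3.62 and 5.48 FPKM with shRNA 2, against 3.39 and 4.00 FPKM in the controls. The shRNA 2 libraries overlapped the controls, and no comparison passed (limma adjusted p = 0.384 with shRNA 1 and 0.470 with shRNA 2). Some 2.25% of its exon bases overlap ANO10 on the opposite strand, a gene at 1.82 to 4.79 FPKM. Without the second shRNA 2 library its log2 fold change with shRNA 2 was −0.02, against 0.22 with it.

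HILPDA (ENSG00000135245, chromosome 7, 128455849 to 128458418, plus strand), an inhibitor of PNPLA2 that hypoxia induces, was at 8.34 and 6.86 FPKM with shRNA 1 and 10.6 and 6.75 FPKM with shRNA 2, against 4.82 and 5.27 FPKM in the controls. All knockdown libraries were above both controls. Neither log2 fold change passed, 0.50 with shRNA 1 (SE 0.21, limma adjusted p = 0.142) and 0.65 with shRNA 2 (SE 0.21, limma adjusted p = 0.0758). With shRNA 2 it passed on recovered reads (0.0273) and without that group's second library (0.94, limma adjusted p = 0.0222). Each of AC010655.2 and AC010655.4 overlaps under 10% of its exon bases, on the same strand, and both were at most 0.490 FPKM. G0S2 (ENSG00000123689, chromosome 1, 209675420 to 209676388, plus strand), the other inhibitor, had 1 read in the second 20 mM control (0.0649 FPKM) and 0 reads in the other 7 libraries, where a count of 0 allows at most 0.227 FPKM, so no change could be measured.

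**Figure D3:**
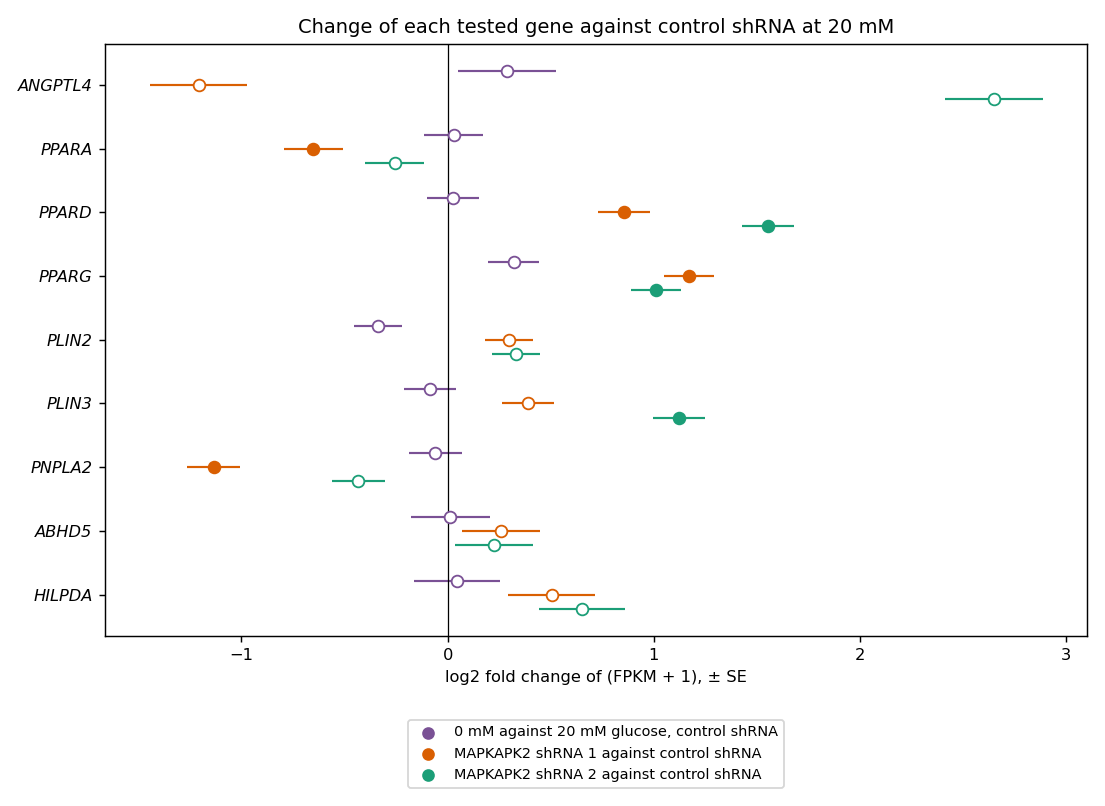
Log2 fold change of (FPKM + 1) with SE for the 9 genes that passed the filter, each group against control shRNA at 20 mM. Filled points passed the limma test; open points did not, and the open ANGPTL4 points with shRNA 1 and shRNA 2 are descriptions without a test.

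Glucose withdrawal changed 0 of the 9 tested genes in limma, where 0% of all tested genes passed. At an unadjusted p under 0.05 there were 2 of the 9, PPARG upward and PLIN2 downward, beside 8.75% of all tested genes, and the fit on recovered reads called 0 of the 9, where 0.172% of all genes passed (0.154% up and 0.0185% down). The 0 mM and 20 mM libraries did not overlap for 3 of the 9, ANGPTL4 and PPARG above and PLIN2 below, beside 41.3% of all tested genes (19.1% above and 22.2% below). PLIN3 (63.1 and 66.5 FPKM at 0 mM, against 73.2 and 64.6 at 20 mM), PNPLA2 (30.4 and 27.1, against 31.2 and 28.9), HILPDA (5.98 and 4.57, against 4.82 and 5.27) and ABHD5 (3.29 and 4.22, against 3.39 and 4.00) overlapped. The median log2 fold change of the 9 was 0.03, beside −0.01 over all tested genes.

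The genes around these pathways were taken from 5 lists. Of all tested genes 9.35% rose and 10.5% fell with shRNA 1 in limma, and 11.1% rose and 7.73% fell with shRNA 2. These shares are the background for the list and marker counts below. Of 17 genes of the lipoprotein lipase system and the ANGPTL family 5 were tested, and LPL itself was at 0 FPKM in all 8 libraries. No other ANGPTL gene passed the filter. In limma 2 rose and 0 fell with shRNA 2 (median log2 fold change 0.36; unadjusted 3 and 0, read-based 3 and 0). Among them was SDC1, a heparan sulfate proteoglycan, at 31.5 and 24.4 FPKM with shRNA 2, against 12.8 and 12.9 FPKM in the controls (log2 fold change 1.05, limma adjusted p = 0.00332). With shRNA 1 limma called 0 of the 5 (unadjusted 1 up, read-based 1 up and 1 down), and SDC1 was at 14.1 and 13.02 FPKM.

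Of 28 PPAR target genes 17 were tested, with 2 up and 2 down with shRNA 1 (median −0.01) and 4 up and 2 down with shRNA 2 (median 0.22). CAT, the peroxisomal catalase, rose with both, at 19.0 and 20.2 FPKM with shRNA 1 and 22.02 and 21.4 FPKM with shRNA 2, against 10.6 and 10.2 FPKM in the controls (limma adjusted p = 0.00178 and 7.34e-04). CPT1A, which admits long-chain fatty acids into mitochondria, fell with both, at 7.19 and 7.16 FPKM with shRNA 1 and 6.63 and 7.55 FPKM with shRNA 2, against 11.2 and 11.8 FPKM (limma adjusted p = 0.00656 and 0.00559). SLC25A20, the mitochondrial carnitine carrier, rose with shRNA 1 (log2 fold change 0.63), and HADHA, a subunit of the trifunctional protein of fatty acid oxidation, rose with shRNA 2 (0.64). FABP1 and CYP4A11 were at 0 in all libraries and PDK4 was at most 0.478 FPKM. So the called targets went in both directions with either shRNA, where 19.8% (shRNA 1) and 18.8% (shRNA 2) of all tested genes passed.

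Among 16 partners and cofactors of the PPARs 14 were tested. With shRNA 1 MED1, a Mediator subunit that binds nuclear receptors, fell (8.10 and 9.13 FPKM, against 17.6 and 16.2 in the controls; limma adjusted p = 0.00567) and NRIP1, a corepressor, rose (4.58 and 6.203, against 3.33 and 2.82; adjusted p = 0.0494), with a list median of −0.05. With shRNA 2, 5 rose and 0 fell in limma (median 0.23; unadjusted 5 and 0, read-based 5 and 0). They included NRIP1 (6.44 and 8.43 FPKM) and the coactivator NCOA3 (11.3 and 15.1 FPKM, against 7.98 and 7.53 in the controls). RXRG and PPARGC1A were at 0 in all libraries.

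Of 29 other lipid droplet genes 20 were tested, with 4 up and 3 down with shRNA 1 (median −0.19) and 4 up and 0 down with shRNA 2 (median 0.09; unadjusted 4 and 2, read-based 4 and 1). ACSL3, which activates fatty acids at growing droplets, fell with shRNA 1 to 7.52 and 7.60 FPKM, against 17.8 and 17.8 in the controls (limma adjusted p = 0.00268), and was at 19.3 and 24.5 FPKM with shRNA 2. CAVIN1, a caveolar coat protein gene, fell with shRNA 1 as well (45.5 and 46.6, against 94.6 and 88.5). LIPA, the lysosomal acid lipase, rose with both (13.6 and 14.2 FPKM with shRNA 1, 10.5 and 11.3 with shRNA 2, against 7.62 and 6.37). MGLL, the lipase of monoacylglycerols, rose with shRNA 2 to 4.79 and 4.43 FPKM, against 0.848 and 0.920 in the controls (limma adjusted p = 7.10e-04). MGLL also rose with shRNA 1, to 2.34 and 2.58 FPKM (limma adjusted p = 0.00645). LPIN1, a phosphatidate phosphatase, rose with shRNA 2 (5.12 and 5.94 FPKM, against 2.21 and 2.52). With shRNA 1 LPIN1 fell, to 1.23 and 1.26 FPKM (limma adjusted p = 0.019).

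Hypoxia genes were high in the same shRNA 2 libraries as ANGPTL4: of 20 listed 19 were tested, and 14 rose and 2 fell with shRNA 2 (median log2 fold change 1.26), against 4 up and 2 down with shRNA 1 (median 0.16). NDRG1, a stress-response gene, was at 121 and 92.7 FPKM with shRNA 2 and 15.4 and 15.7 FPKM with shRNA 1, against 11.8 and 12.2 in the controls. BNIP3L, a mitophagy receptor, was at 40.8 and 37.1 FPKM with shRNA 2, against 7.81 and 9.10 in the controls (log2 fold change 2.08). BNIP3L also rose with shRNA 1, to 13.6 and 13.7 FPKM (log2 fold change 0.63, limma adjusted p = 0.0108). EPAS1, which encodes HIF-2α, rose with both shRNAs (5.78 and 6.16 FPKM with shRNA 1, 10.6 and 11.9 with shRNA 2, against 2.36 and 2.46), as did AK4, a mitochondrial adenylate kinase. SLC2A1, the glucose transporter GLUT1, fell with both (log2 fold change −1.09 and −1.28), as did PFKFB3 (−0.57 and −0.65). The list was chosen with its rise in these libraries already known, so it lends no separate weight. Epithelial markers moved in the same libraries: 4 of the 6 tested fell with shRNA 2 (7.73% of all tested genes), KRT8, KRT18, EPCAM and CDH1. The summed FPKM of the 8 was 584 to 697 with shRNA 2 and 915 to 1024 with shRNA 1, against 956 to 985 in the 20 mM controls. CDH1 rose with shRNA 1. The summed FPKM of the 10 fat cell markers, 6 of which stayed under 1 FPKM in all libraries, was 74.1 to 79.8 with shRNA 2 and 52.0 to 59.6 with shRNA 1, against 63.7 to 65.0 in the controls. Nearly all of that sum came from CFD and ADIPOR2, of which neither passed the test with shRNA 2 and ADIPOR2 fell with shRNA 1 (limma adjusted p = 0.00356). GPD1, another of the 10, was at 0.370 and 0.358 FPKM with shRNA 2, against 1.23 and 0.971 FPKM in the controls (limma adjusted p = 0.0925, read-based 0.00883). COL1A1, the 1 fibroblast marker tested, fell with both shRNAs, by a log2 fold change of −0.60 with shRNA 1 (limma adjusted p = 0.00893) and −0.49 with shRNA 2 (limma adjusted p = 0.0171). The summed FPKM of the 7 fibroblast markers was 4.02 to 4.22 with shRNA 1 and 4.24 to 4.74 with shRNA 2, against 6.73 to 7.30 in the controls. DCN, LUM and PDGFRA, also in that list, were at 0 in all libraries. The part of these markers in the results with either shRNA was not tested.

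In the 0 mM cells limma called 0 genes of these 5 lists. Of all tested genes 0% passed there, and 8.75% had an unadjusted p under 0.05 in limma. At an unadjusted p under 0.05 there was 1 gene up in the lipoprotein lipase list, 1 down among the PPAR targets, 0 among the partners, 2 down among the lipid droplet genes and 7 up among the hypoxia genes, where the fit on recovered reads called 1 up.

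**Figure D4:**
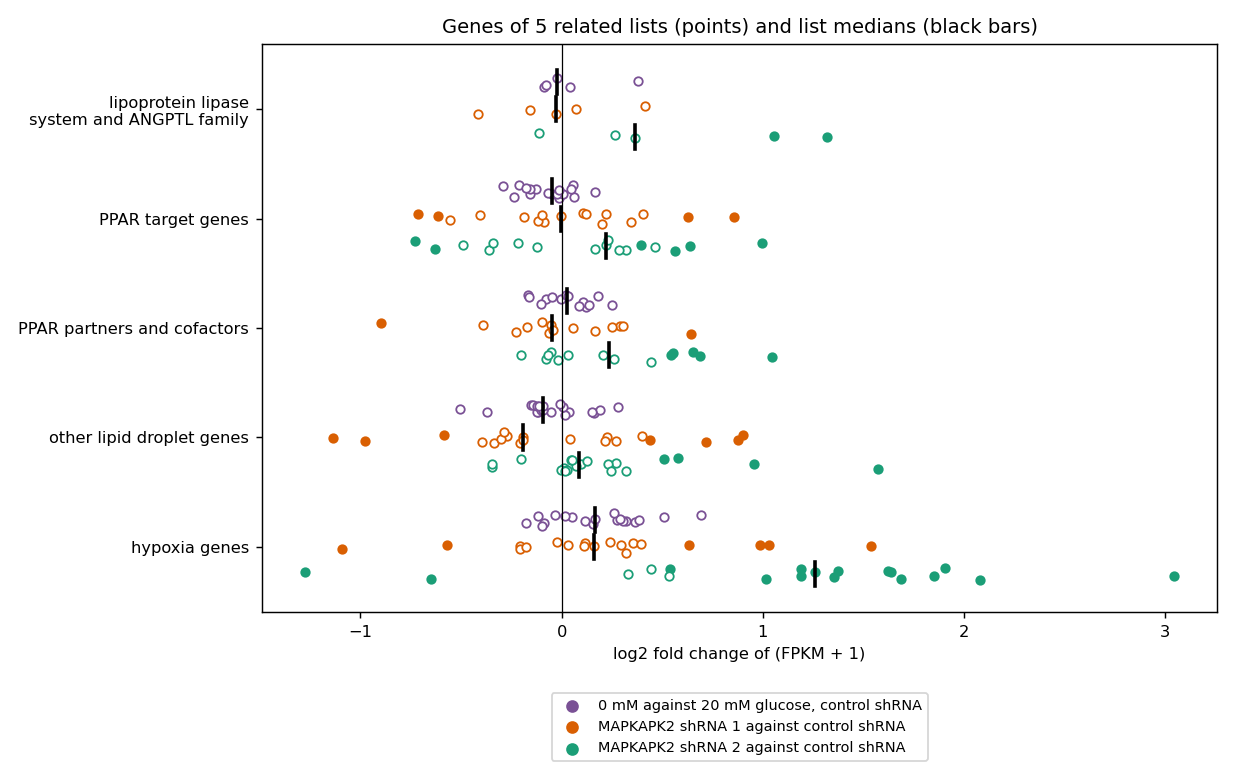
Log2 fold change of (FPKM + 1) for the tested genes of 5 lists (points; filled where the limma test was passed) and list medians (black bars), in 3 comparisons against control shRNA at 20 mM. The shRNA 2 points of the hypoxia list lie furthest right, with a median of 1.26, while medians of the other lists lie between −0.19 and 0.36.

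The 5 protein-coding genes whose pattern was most like that of ANGPTL4, out of 7905 with at least 5 FPKM in their highest group, had a Pearson r of 0.984 to 0.991 of log2(FPKM + 1) over the 8 libraries. These were SEMA7A, a membrane-anchored semaphorin, ATXN7L3B, WWC1, a Hippo pathway scaffold also called KIBRA, TMCO3, and SNX9, an endocytic sorting nexin. The libraries form 4 groups of 2, so r mostly reflects the order of 4 group levels, and it is given as a description. SEMA7A was at 38.3 and 30.5 FPKM with shRNA 2 and 10.4 and 9.62 FPKM with shRNA 1, against 15.6 and 13.97 in the controls. Its spread was far narrower than that of ANGPTL4, and that of WWC1 was narrower still, with means of 16.6 FPKM with shRNA 2 and 10.6 FPKM with shRNA 1, against 12.8 FPKM in the controls. Of the listed genes PLIN3 had the highest r with ANGPTL4 (0.70), then PPARD (0.56), and PPARG was near 0 (0.08).

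**Figure D5:**
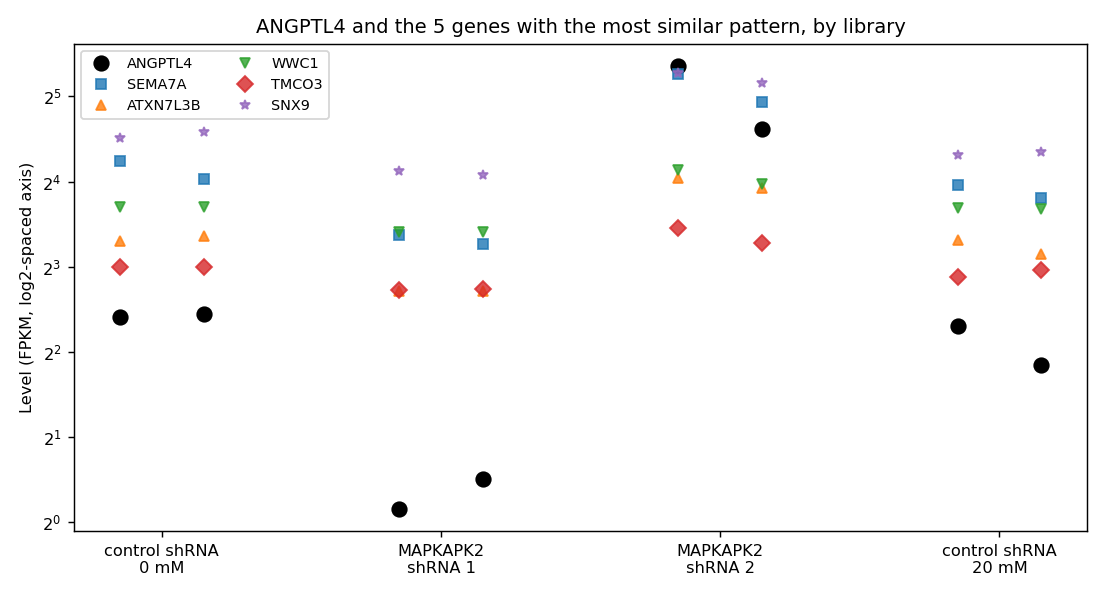
FPKM on a log2-spaced axis of ANGPTL4 (black circles) and the 5 genes with the highest Pearson r to it, in each of the 8 libraries by group. All 6 genes were highest with shRNA 2 and lowest with shRNA 1, and ANGPTL4 spanned the widest range, from 1.11 to 40.95 FPKM.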

How the data were processed

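Libraries were made from total RNA with random primers, and the labels' protocols describe both stranded and unstranded second strands without saying which was used. How strand was counted is not stated either, so reads of overlapping antisense genes may be mixed. The submitters' processing notes name DESeq2 1.20.0, HISAT2 2.0.5 and featureCounts 1.5.0-p3, with no role. FPKM for 58735 genes in 8 libraries were deposited by the authors, and all identifiers, positions and exon lengths match GENCODE 29 on GRCh38. FPKM times exon length gave whole reads for 100% of values, each within 0.001 of a read (more for large counts, in proportion), once divided by the value of 1 read in that library.

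Genes with at least 1 FPKM in at least 2 libraries (16239, of which 11446 are protein-coding) were fitted as log2(FPKM + 1) in 1 limma model (limma 3.58.1, R 4.3.3, eBayes with trend) of 4 group means with 4 residual degrees of freedom. Fold changes on this scale understate changes of low genes. P-values were adjusted by Benjamini-Hochberg over all tested genes, and the threshold was 0.05. Alternatives were a pseudocount of 0.1, no filter, limma voom on the recovered reads scaled by the library size behind the FPKM, quantile normalization, the replicate number as a block, and leaving out each library. The fits were also run on simulated data with fewer changed genes than the shRNA comparisons called. No result here rests on that run. Counting error is an exact 95% Poisson interval, and 0 reads allow up to 3.

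The genes, lists and tests were chosen with earlier results of these data known. Named were all 10 genes, MAPKAPK2, up to 3 genes per list and comparison past the threshold with the smallest p, and the 5 genes most like ANGPTL4 in pattern; other genes named were listed members singled out after their values were seen. Some genes that this rule picks are not reported here. Upstream sequences and starts are those of RefSeq on GRCh38.p14.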

Additional observations from a re-analysis of the deposited data

Results flagged for a closer look

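ANGPTL4 was the one gene of the 10 that lay on opposite sides of the controls with the 2 shRNAs: both libraries with shRNA 2 were above both 20 mM controls and both with shRNA 1 were below them. The log2 difference of shRNA 2 minus shRNA 1 was 3.86. This difference was not tested, because it is the one by which the gene was chosen. How many of all tested genes lay on opposite sides was not counted, and the pattern is not particular to ANGPTL4. Outside the 10, LPIN1 and SEMA7A did so in the same direction and CDH1 in the reverse direction.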

How the results depend on the processing

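Among the 13 alternative fits, the called rises of PPARG with both shRNAs, of PPARD and PLIN3 with shRNA 2, and the fall of PNPLA2 with shRNA 1 were called in all. Of the 8 genes with a test, 4 passed with shRNA 1 (2 to 5 with 1 library left out) and 3 with shRNA 2 (3 to 5); on recovered reads the count with shRNA 2 was 5. With glucose withdrawal it was 0 in every alternative. Over all genes, 3222 passed with shRNA 1 and 3055 with shRNA 2 (942 to 4054 and 1015 to 3026 with 1 library left out). Counts with shRNA 1 were 942 to 1057 without either 20 mM control or either shRNA 1 library, and those with shRNA 2 were 1015 and 1152 without the first or the second 20 mM control. Of the 8 genes, 2 passed with shRNA 1 without the first 20 mM control, and 5 passed with shRNA 2 without its second library, where 942 and 2656 of all genes passed. For glucose withdrawal the count was 0 (0 to 1 with 1 library left out, the 1 without the second shRNA 2 library), 6 without the filter on low values and 28 on recovered reads. The cause was not tested.

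Values near 0 changed sign without being called. For glucose withdrawal, quantile normalization gave a log2 fold change of −0.00199 for PPARA and −0.00216 for ABHD5. With 1 library left out the log2 fold change at 0 mM ran from −0.0068 to 0.0666 for PPARA, −0.11 to 0.16 for PPARD, −0.17 to 0.0042 for PLIN3, −0.12 to 0.21 for HILPDA, −0.14 to 0.0198 for PNPLA2 and −0.13 to 0.15 for ABHD5, and with shRNA 2 from −0.0197 to 0.47 for ABHD5.

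Over all tested genes the replicate numbers paired the libraries weakly at most: deviations of same-numbered libraries correlated between −0.03 and 0.18 over 6 pairs of groups. Of the listed genes ABHD5 was higher, and PNPLA2 and PLIN2 were lower, in the second library of every group, while the other fitted genes were mixed. The share of all tested genes with 1 direction in every group was not counted, so nothing is read from this. With the replicate block the SE fell from 0.189 to 0.112 for ABHD5 and from 0.130 to 0.092 for PNPLA2. It rose from 0.143 to 0.150 for PPARA and from 0.125 to 0.129 for PPARD. With the replicate block 5 of the 8 genes passed with shRNA 1 and 5 with shRNA 2, HILPDA (adjusted p = 0.0409) and PNPLA2 (0.0255) among the last, PLIN3 passed with shRNA 1 (0.0479), and the counts over all genes were 3470, 3332 and, for glucose withdrawal, 0. Depth limits G0S2, with 1 read in all 8 libraries.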
